A study of Mus musculus with 38 samples.

Results

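The genes described here are 10 components and outputs of the circadian clock: Per1, Per2, Per3, Ciart, Bhlhe41, Dbp, Tef, Nr1d1, Nr1d2 and Arntl. They were chosen as a list, by Ensembl identifier matched to mouse symbol, and are 10 of the 48709 genes counted in the hippocampus of 38 mice. All 10 passed the filter on low counts in every comparison. The question put to them was whether groups of mice differed in the joint level of genes that change over the day, since the time of dissection is not given in the sources used here.

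The molecular clock is a loop of transcription and translation that runs in nearly every cell, including those of the hippocampus. Arntl (also called BMAL1) with CLOCK or NPAS2 activates genes through E-box elements, among them the Per and Cry genes, whose proteins inhibit their own activators. The nuclear receptors REV-ERBα (Nr1d1) and REV-ERBβ (Nr1d2) repress Arntl in turn, so that Arntl peaks at a time of day when most of the other 9 genes are low.

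RNA came from the hippocampus of C57BL/6 WT mice and of APPPS1ΔE9 mice, which carry transgenes for amyloid precursor protein and presenilin and deposit amyloid plaques. Mice ate placebo chow or chow with anle138b, a diphenylpyrazole compound, at 2 g per kg of food, and the methods describe males kept under a light and dark cycle. At 6 months of age (the pre-plaque group, on the chow from the age of 2 months) there were 4 WT mice on each chow and 4 APPPS1ΔE9 mice on each chow. At 10 months (the post-plaque group, on the chow from 6 months) there were 5 WT mice on each chow, 5 APPPS1ΔE9 mice on placebo and 7 on anle138b. The 2 ages are separate cohorts, so age, cohort and handling cannot be told apart.

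Total counts were between 15847985 and 31895808 per mouse. App was at most 1799 CPM (counts of a gene scaled to the library's total) in every WT mouse and at least 3274 in every APPPS1ΔE9 mouse, reads of the transgene that map to the mouse gene included, so the genotypes could be told apart. The 4 placebo-treated WT libraries of 6 months are WT by their titles but carry the transgenic genotype in another label, and their App was in the WT range. Xist, the RNA of the inactive X chromosome, was at 1154 CPM or more in 12 mice and at 5.41 or less in the other 26, although the methods describe males. The 12 were 3 placebo-treated and 2 anle138b-treated WT mice at 6 months, 3 and 3 of the same at 10 months, and 1 anle138b-treated APPPS1ΔE9 mouse at 10 months. Hippocampal neuron markers were found in all mice, at levels that varied. Neurod6 was between 134 and 310 CPM, Prox1 between 46.8 and 204.5, and Spink8, the lowest of the list, between 14.7 and 35.7. The choroid plexus marker Ttr varied from 12.9 to 7509 CPM. Nms and Six6, which mark the suprachiasmatic nucleus and neighbouring hypothalamus, reached at most 0.0934 and 0.25 CPM, while Vip, which these nuclei share with interneurons of hippocampus and cortex, was at 7.31 to 24.8 CPM in every mouse, Avp reached 2.13 CPM and Pomc, a hormone gene of the pituitary and hypothalamus, ran from 0.323 to 311 CPM.

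Promoter sequence is shown for 3 of the genes because they carry the elements through which the loop is known to act and are among those that moved most with age below. The windows are the 250 bases before the RefSeq start site on the gene's strand, in GRCm38.p6, written 5′ to 3′ with matches in capitals. Ciart is at chr3:95882229-95882478 (minus strand), Per1 at chr11:69098699-69098948 (plus strand) and Per3 at chr4:151044666-151044915 (minus strand).
Ciart: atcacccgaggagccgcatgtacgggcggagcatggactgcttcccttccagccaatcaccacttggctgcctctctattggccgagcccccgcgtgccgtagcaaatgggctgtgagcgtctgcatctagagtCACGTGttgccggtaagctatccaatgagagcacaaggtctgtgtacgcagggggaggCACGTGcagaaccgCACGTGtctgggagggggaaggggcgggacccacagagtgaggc
Per1: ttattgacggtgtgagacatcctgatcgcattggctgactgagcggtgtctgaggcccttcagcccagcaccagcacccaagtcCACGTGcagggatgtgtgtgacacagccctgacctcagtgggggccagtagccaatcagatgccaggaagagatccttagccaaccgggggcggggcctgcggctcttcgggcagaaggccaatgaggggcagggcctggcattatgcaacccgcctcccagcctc
Per3: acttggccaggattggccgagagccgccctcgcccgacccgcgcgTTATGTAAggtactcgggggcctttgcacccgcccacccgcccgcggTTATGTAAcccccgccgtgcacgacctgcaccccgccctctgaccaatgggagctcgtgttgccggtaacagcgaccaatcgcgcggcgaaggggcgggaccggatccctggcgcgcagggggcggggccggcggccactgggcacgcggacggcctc
The search covered 300 bases, from 250 before to 50 after the start. It used the E-box CACGTG, the E′-box CACGTT or AACGTG, the D-box TTATGTAA, TTACATAA or TTACGTAA, and the ROR element TAGGTCA or TGGGTCA on both strands. Windows were found for 9 of the 10 genes, Per2 not being among them. Ciart held 3 E-boxes, 116, 58 and 44 bases before the start, and 0.0883% of the 32851 promoters in the table held 3 or more. Per1, Tef and Bhlhe41 held an E-box each, against 7.15% of all promoters, 166 bases before the start in Per1 and 153 in Bhlhe41. A second start of Per1, not shown, had no match, and starts 1 and 2 of Tef each held an E-box. The percentages are per promoter and not per gene. Per3 held 2 D-boxes, 205 and 158 bases before the start, and 0.0244% of promoters held 2 or more. Nr1d1 held an E′-box 28 bases before the start (4.68% of promoters), and a second start of Arntl had a ROR element 30 bases after it (6.45%). Dbp and Nr1d2 had no match in these windows. A match is a description of the letters and not a measurement of binding. Since the 3 genes shown were picked on both, they cannot show whether elements go with the change with age, which was not tested.

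All 10 genes were readily measured. Per kilobase of exon, the mean level over the 38 mice was highest for Tef, at 55.9 CPM per kb. It was 26.6 for Nr1d1, 16.4 for Nr1d2, 13.8 for Per1 and 11.3 for Dbp. Per2 (7.98), Per3 (7.42), Bhlhe41 (5.30), Ciart (4.57) and Arntl (4.35) followed. The least counted gene was Ciart, with at most 457 reads in a mouse. The spread between mice was modest within each cohort. The highest 6-month mouse exceeded the lowest by 1.2 times for Tef and by 2.19 times for Ciart, and at 10 months by 1.56 times for Tef and 3.44 times for Dbp. All levels given from here on are CPM of the whole gene, so they compare mice and not genes.

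**Figure D1:**
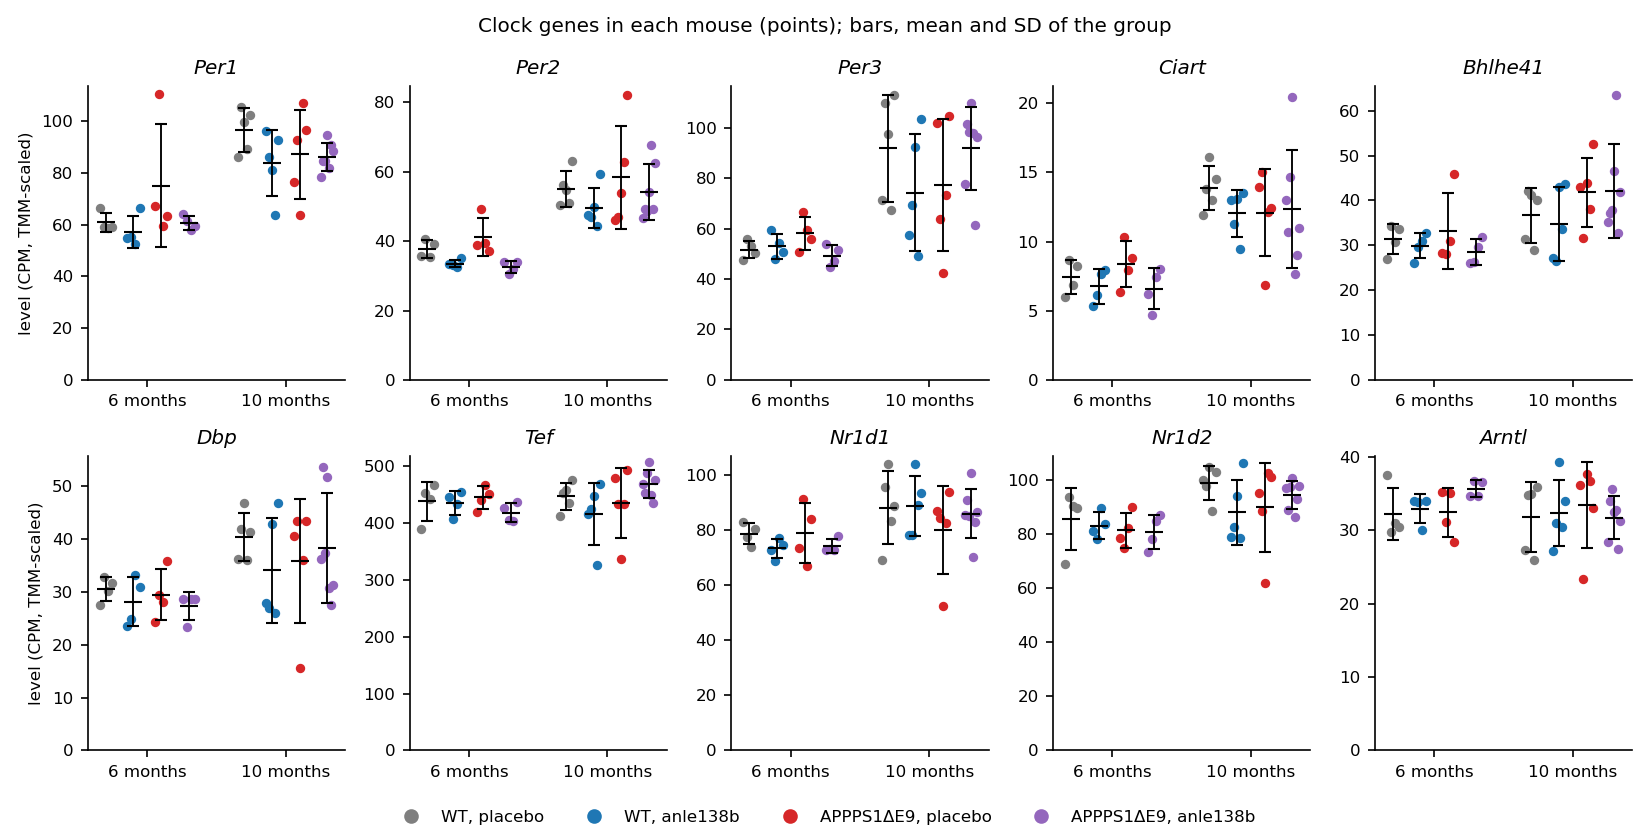
Level of each clock gene in each of the 38 mice (points, CPM after TMM scaling, linear axes from 0) by group, with bars for the mean and SD. Within either age the groups overlap for most genes, while Per2, Per3 and Ciart sit higher at 10 months (means 54.3, 84.5 and 12.6 CPM) than at 6 months (36.3, 53.1 and 7.28 CPM).

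Groups of the same age were compared first, to ask whether genotype or chow went with a shift of the clock genes. By edgeR no clock gene passed the threshold (adjusted p under 0.1) in any of the 8 comparisons of 2 groups of the same age. Nor did any in the 2 tests for any difference among 4 groups or the 2 interactions. In 5 of the 8 comparisons the groups shared no sequencing lane, so lane and group cannot be told apart. These were the 4 between genotypes and that of chow in 6-month APPPS1ΔE9 mice. High Xist was also uneven between the genotypes. On placebo it was found in 3 of 4 WT and 0 of 4 APPPS1ΔE9 mice at 6 months, and in 3 of 5 and 0 of 5 at 10 months. On anle138b it was found in 2 of 4 and 0 of 4 at 6 months, and in 3 of 5 and 1 of 7 at 10 months. Few genes of any kind passed by edgeR, and DESeq2 called more. Of all genes tested at 6 months, 0.0715% passed between APPPS1ΔE9 and WT mice on placebo, 0.047% between the genotypes on anle138b, and 0.0529% between the chows in APPPS1ΔE9 mice. At 10 months 0.324% and 0.723% passed between the genotypes on placebo and on anle138b. Any difference among 4 groups was called for 0.161% of genes at 6 months and 0.951% at 10 months. No gene passed between the chows in WT mice at either age, between the chows in APPPS1ΔE9 mice at 10 months, or in either interaction (0% by edgeR in each). Those 5 comparisons had 310, 212, 254, 1390 and 407 genes with an unadjusted p under 0.05, in the order of 6-month WT chow, 10-month WT chow, 10-month APPPS1ΔE9 chow, 6-month interaction and 10-month interaction. DESeq2 called 0, 0, 0, 22 and 2 genes in them, none a clock gene. Of the 80 tests of a clock gene between 2 groups, 3 had an unadjusted p under 0.05 by edgeR (3.75%). Of the 3, 2 fell in the 6-month chow comparison of APPPS1ΔE9 mice, where 2233 of 17009 genes had such a p. The other fell in that of WT mice, where 310 of 16766 did. Between genotypes, 1858 and 961 genes did at 6 months and 696 and 992 at 10 months, on placebo and on anle138b. The largest log2 change was 0.35 in size, and the median standard error was 0.105.

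Per2, a core inhibitor of the loop that also answers to neuronal activity, came nearest to the threshold. At 6 months it was at 37.3, 38.98, 39.4 and 49.4 CPM in placebo-treated APPPS1ΔE9 mice and at 30.6, 31.9, 33.9 and 33.99 CPM in anle138b-treated APPPS1ΔE9 mice. Every treated mouse lay below every placebo mouse, and 6.02% of all genes had groups that do not overlap in this comparison. All placebo libraries of the pair were on lane 5 and all anle138b libraries on lane 6. The log2 difference was -0.34 (SE 0.0836), with an unadjusted p of 0.00135 and an adjusted p of 0.28 by edgeR's quasi-likelihood test. DESeq2 gave -0.34 with an adjusted p of 0.0605, a fit without the filter on low counts gave an adjusted p of 0.0329, and adding Y-linked expression to the model gave -0.42 with an adjusted p of 0.0933. With DESeq2, without the filter and with Y-linked expression, 204 of 17009, 120 of 31422 and 94 of 17009 genes were called. The main fit called 9 of 17009, so these settings called more genes of any kind. Every mouse of this pair had low Xist, so the Y-linked covariate is not an adjustment for sex. Y-linked expression was 169 to 359 CPM in the placebo-treated and 174 to 194 CPM in the anle138b-treated mice. Without placebo-treated APPPS1ΔE9 replicate 1 the adjusted p was 0.0987, so the side of the threshold depended on the setting. Leaving out 1 mouse in turn otherwise left it between 0.16 and 0.66. The summed choroid plexus markers had a median of 452.5 CPM in the placebo-treated and 6418 CPM in the anle138b-treated APPPS1ΔE9 mice. With them as a covariate Per2 differed by -0.28, with an adjusted p of 0.612.

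In WT mice of 6 months Per2 was at 35.5, 35.7, 39.3 and 40.7 CPM on placebo and at 32.5, 33.1, 33.5 and 35.1 CPM on anle138b. These groups did not overlap either, as was so for 1.62% of all genes. The log2 difference was -0.17, with an unadjusted p of 0.0217 and an adjusted p of 0.9998 by edgeR. The 2 chow comparisons use different mice. At 10 months Per2 ranged from 50.4 to 63.2 CPM on placebo and 44.25 to 59.3 on anle138b in WT mice. In APPPS1ΔE9 mice of that age it ranged from 46.1 to 82.2 CPM on placebo and from 46.8 to 67.8 on anle138b. The groups overlapped throughout. No clock gene had groups apart in any 10-month comparison, where the share of all genes with groups apart was 1.39% between genotypes on placebo, 0.85% between genotypes on anle138b, 0.302% between chows in WT and 0.0494% between chows in APPPS1ΔE9 mice. None had them apart between genotypes on placebo at 6 months either, where 5.86% of all genes did.

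Per3, the period gene whose loss leaves the loop running, moved the same way in the 6-month APPPS1ΔE9 mice. It was at 50.9, 56.05, 59.4 and 66.5 CPM on placebo and at 44.8, 47.0, 51.6 and 53.9 CPM on anle138b. The groups overlapped, and the log2 difference of -0.24 had an unadjusted p of 0.0135 and an adjusted p of 0.325. Per3 also had the smallest unadjusted p of the interaction of genotype and chow at 6 months, with an estimate of -0.27 (unadjusted p 0.0339, adjusted p 0.618). Ciart, a repressor of CLOCK and BMAL1 also named Chrono, was at 6.32, 7.94, 8.83 and 10.3 CPM on placebo and at 4.70, 6.19, 7.45 and 8.01 CPM on anle138b in these mice. Its difference of -0.35 (SE 0.183) had an adjusted p of 0.441. Of the 10 genes, 9 were lower in anle138b-treated APPPS1ΔE9 mice at 6 months and Arntl was higher by 0.14. The median log2 difference of the 10 was -0.17, against -0.0022 over all genes tested, and none was past the threshold. It was -0.09 with choroid plexus markers and -0.10 with Y-linked expression as a covariate. Of 12 immediate early genes, 9 were lower in the same comparison, with a median of -0.17 and none called. Joint shifts were also seen in other pairs of groups. On anle138b 8 of the 10 clock genes were lower in WT mice at 10 months (median -0.16) and at 6 months (-0.075). In 10-month APPPS1ΔE9 mice 7 were higher on anle138b (0.055). In APPPS1ΔE9 against WT mice, 8 were higher on placebo (0.054) and 7 lower on anle138b (-0.039) at 6 months. At 10 months 7 were lower on placebo (-0.14) and 8 higher on anle138b (0.11).

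Per1, the period gene most quickly induced by stimuli, gave a single high mouse. In placebo-treated APPPS1ΔE9 mice of 6 months it was at 59.2, 63.4, 67.05 and 110.5 CPM. The other 3 groups of that age reached at most 66.4 CPM, so 1 mouse set the top of the range. The high mouse had Fos, an immediate early gene, at 25.04 CPM. It also had the highest sum of 12 immediate early genes of that group, 619 CPM against a group median of 259.

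Arntl, the activator of the loop, separated 1 pair of groups. At 6 months it was at 30.02, 33.9, 33.93 and 33.97 CPM in anle138b-treated WT mice and at 34.7, 34.7, 36.5 and 36.8 CPM in anle138b-treated APPPS1ΔE9 mice. The groups did not overlap, as was so for 3.29% of all genes in this comparison. Arntl was not called, and the smallest adjusted p of the 10 genes in this comparison was 0.836. Ordering the 4 groups of an age by their means, the gap between neighbours exceeded the larger of their SDs in 1 of 3 steps for each of Per2, Nr1d1 and Arntl at 6 months. It did so for no step of the other 7 genes at 6 months and for none of the 10 genes at 10 months.

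The remaining clock genes showed no group apart. Dbp and Tef are transcription factors of the PAR-bZIP family that carry the rhythm to other genes through D-boxes. Over the 4 groups of 6 months the group means were 27.3 to 30.5 CPM for Dbp and 418 to 445 CPM for Tef. At 10 months they were 34.1 to 40.4 and 416 to 468 CPM. Nr1d1 means ran from 73.45 to 78.9 CPM at 6 months and from 80.0 to 88.7 CPM at 10 months, and Nr1d2 means from 80.8 to 85.6 and from 88.03 to 98.7 CPM. Bhlhe41 (DEC2), a repressor that competes for E-boxes, had means of 28.45 to 33.25 and 34.8 to 42.1 CPM. Bhlhe41 differed by 0.27 (log2) between APPPS1ΔE9 and WT mice on anle138b at 10 months, with an adjusted p of 0.838 by edgeR. With Y-linked expression as a covariate the difference was 0.53 (adjusted p 0.0463). That fit called 269 of 17151 genes, against 124 without the covariate. High Xist was found in 3 of the 5 WT and 1 of the 7 APPPS1ΔE9 mice of this pair, so the covariate was not balanced between the genotypes. Of 20 other clock genes, among them Clock, Npas2, Cry1, Cry2 and the ROR genes, none was called in the same 12 tests.

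**Figure D2:**
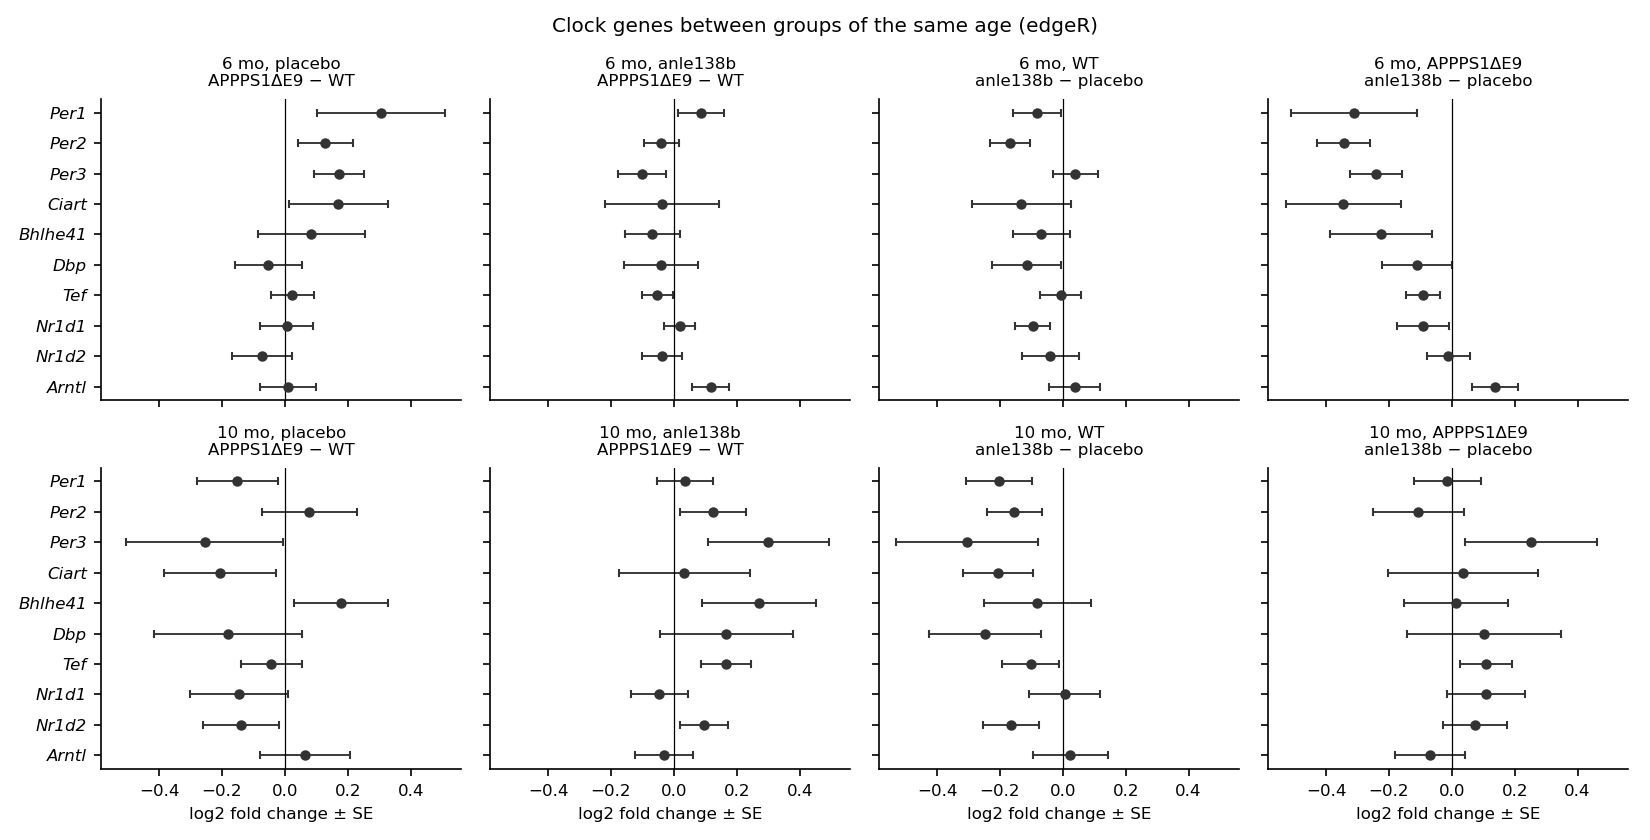
Log2 fold change of each clock gene with its standard error, from edgeR, in the 8 comparisons between 2 groups of the same age (zero line, no difference). The points stay within 0.35 of 0, and at 6 months 9 of 10 are below 0 for anle138b against placebo in APPPS1ΔE9 mice, none past the threshold. In WT mice 8 of 10 are below 0 for anle138b against placebo at each age, and at 10 months 7 of 10 are above 0 in APPPS1ΔE9 mice.

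A clock index summarised the joint pattern as the mean log2 CPM of the other 9 genes minus that of Arntl. Mice taken when those 9 are high and Arntl low score high on it. At 6 months the group means were 0.676 ± 0.243 (SD, n = 4) in WT mice on placebo and 0.559 ± 0.154 (n = 4) in those on anle138b. In APPPS1ΔE9 mice they were 0.738 ± 0.278 (n = 4) on placebo and 0.412 ± 0.112 (n = 4) on anle138b. At 10 months they were 1.14 ± 0.073 (n = 5), 0.935 ± 0.162 (n = 5), 0.953 ± 0.456 (n = 5) and 1.09 ± 0.123 (n = 7) in the same order. Between groups of an age the means differed by at most 0.326, in the 6-month chow comparison of APPPS1ΔE9 mice, where the pooled SD was 0.212. Without the Arntl term this difference was -0.184, and a median in place of the mean gave -0.377. The pooled SD is that of the index with the Arntl term and does not apply to these 2 versions. The mice of those 2 groups overlapped, at 0.452 to 1.01 on placebo and 0.245 to 0.478 on anle138b. Placebo-treated APPPS1ΔE9 mice at 10 months spanned 0.252 to 1.46, which held the whole range of the other 3 groups of that age. The index is a description and was not tested.

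The second question was how the clock genes compare between the cohorts. 8 of the 10 were higher at 10 months and none was lower, in a comparison in which 62.6% of all genes were called, 29.9% higher and 32.6% lower. The call itself therefore says little, and the sizes are given against all genes. The median log2 difference of the 10 genes was 0.36, against -0.016 over all genes tested.

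Ciart rose furthest. It was at 4.70 to 10.3 CPM (median 7.54) in the 16 mice of 6 months and at 6.84 to 20.45 CPM (median 13.01) in the 22 mice of 10 months. Of the 22, 18 lay above every 6-month mouse. The log2 difference was 0.80 (SE 0.107, adjusted p 8.82e-08), and 4.67% of all genes tested went at least as far in that direction.

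Per3 was at 44.8 to 66.5 CPM (median 52.3) at 6 months and at 42.45 to 112.8 CPM (median 94.5) at 10 months. Of the 22 older mice, 17 were above all younger ones, while 1 was below all of them. The difference was 0.66 (SE 0.106, adjusted p 2.24e-06), and 6.57% of genes went as far. Per2 was at 30.6 to 49.4 CPM (median 35.3) and 44.25 to 82.2 CPM (median 50.7), with 14 of 22 above all 6-month mice. It differed by 0.59 (SE 0.061, adjusted p 3.42e-10), as far as 7.89% of genes. Per1 was at 52.6 to 110.5 CPM (median 59.4) and 63.55 to 106.8 CPM (median 88.8). No 10-month mouse was above the single highest 6-month mouse, yet the difference was 0.48 (SE 0.0702, adjusted p 3.89e-07).

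Smaller differences were seen in Dbp, Bhlhe41 and the REV-ERB genes. Dbp differed by 0.37 (SE 0.104, adjusted p 0.00301), with 15.6 to 53.65 CPM at 10 months around the 23.25 to 35.8 CPM of 6 months. Bhlhe41 differed by 0.34 (SE 0.0873, adjusted p 0.00111). Nr1d1 and Nr1d2 each differed by 0.17, with adjusted p of 0.0134 and 0.0048. Their ranges overlapped widely, at 66.9 to 91.5 against 52.4 to 104.2 CPM for Nr1d1 and 68.7 to 93.65 against 62.02 to 106.3 CPM for Nr1d2.

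Tef and Arntl were not called. Tef was at 389.2 to 467.7 CPM and 326.6 to 507.9 CPM, a difference of 0.03 (adjusted p 0.576). Arntl was at 28.3 to 37.5 CPM and 23.4 to 39.25 CPM, a difference of -0.05 (SE 0.0551, adjusted p 0.478).

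The difference had the same sign in all 4 combinations of genotype and chow for 8 of the 10 genes, those that were called. Within a combination the ages did not overlap in 3 of 4 for Per2, in 2 of 4 for each of Per1, Per3 and Ciart, in 1 of 4 for each of Dbp, Nr1d1 and Bhlhe41, and in none for Nr1d2, Tef and Arntl. By combination, the ages lay apart for 5 of the 10 genes in WT mice on placebo, where they did for 21.9% of all genes (12.1% higher at 10 months), and for 3 in WT mice on anle138b (20% and 11.5%). They did so for none in APPPS1ΔE9 mice on placebo (7.69% and 5.12%) and for 4 in those on anle138b (19.9% and 12.1%). The index differed by 0.432 between the cohorts (pooled SD 0.228).

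Choroid plexus markers moved with the cohort as well. All 6 were lower at 10 months, and their sum was 64.8 to 7961 CPM (median 6131) at 6 months and 32.8 to 4348 CPM (median 92.9) at 10 months. With their level as a covariate 6 of the 10 clock genes passed, all higher, where 44.8% of all genes did (23.4% higher). Dbp (0.30, adjusted p 0.119) and Nr1d1 (0.11, adjusted p 0.317) did not. Among the 26 mice with Ttr under 300 CPM, of which 5 were of 6 months, 4 passed, all higher, where 35.9% of all genes did (19.7% higher). These were Per2 (0.50, adjusted p 0.00121), Ciart (0.54, adjusted p 0.0197), Per3 (0.59, adjusted p 0.0272) and Per1 (0.32, adjusted p 0.0534). Both checks were chosen after the data were seen.

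Of the 20 other clock genes, 5 were higher and 5 lower at 10 months. The higher ones were Arntl2 (0.91), a paralog of Arntl, Usp2 (0.28), a deubiquitinase under clock control, Cry2 (0.20), a partner of the PER proteins, and Csnk1e (0.06) and Cipc (0.05). The lower ones were Rora (-0.38) and Rorb (-0.25), activators that share sites with the REV-ERBs, Nampt (-0.23), Wee1 (-0.13) and Clock (-0.10). Their median was -0.05. Cry1, the other cryptochrome, differed by 0.02 and was not called.

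**Figure D3:**
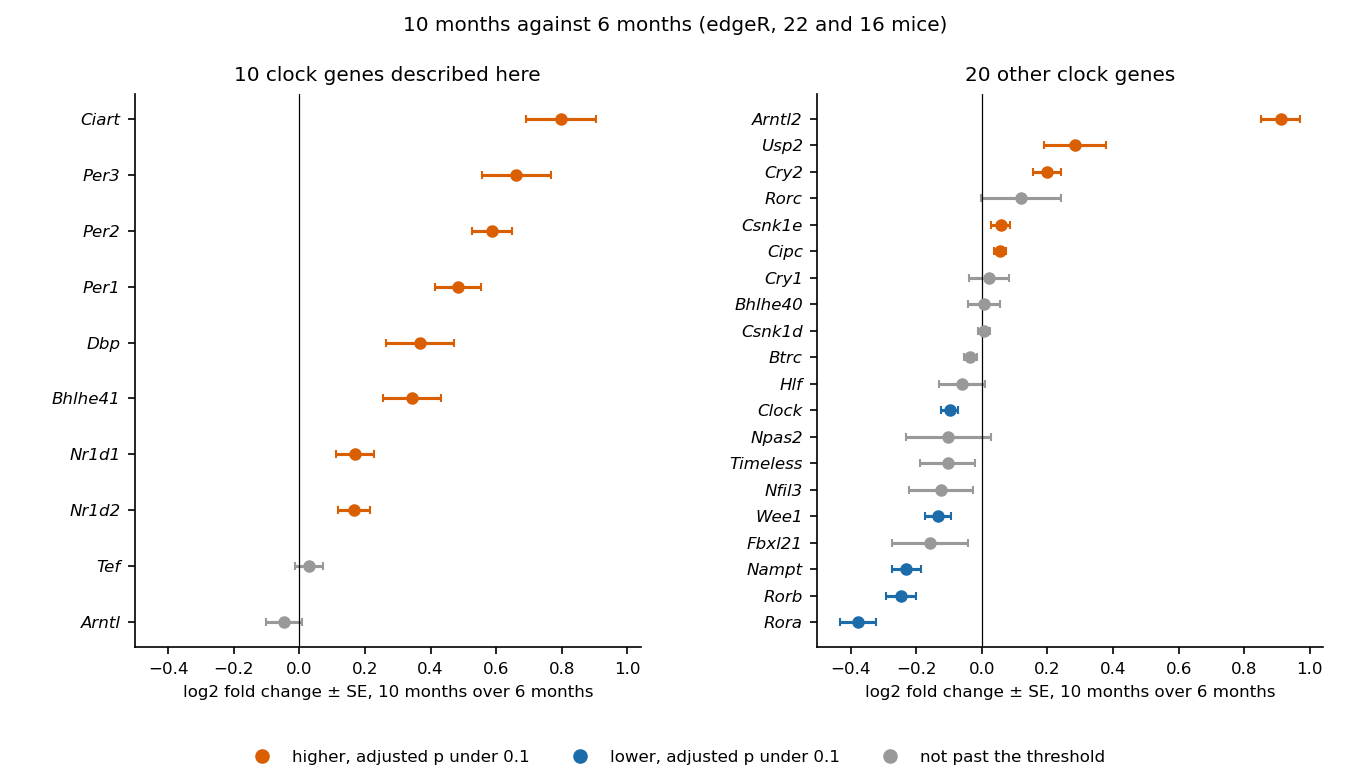
Log2 fold change with standard error for 10-month over 6-month mice, from edgeR, for the 10 clock genes and the 20 other clock genes, with colour for the call. The Per genes and Ciart lie between 0.48 and 0.80, and Tef (0.03) and Arntl (-0.05) lie near 0.

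The mice of 10 months also varied more. The SD of log2 CPM within groups was compared between the cohorts with an F test over all genes, a test added after the data were seen. Of all genes, 17.7% were wider at 10 months, 4.57% wider at 6 months, and the median ratio of SDs was 1.2. Of the 10 clock genes, 4 were wider at 10 months and none at 6 months. For Per3 the SD went from 0.131 to 0.406 (ratio 3.11, adjusted p 0.00438), and 5.33% of genes had a ratio as large. The ratio was 2.2 for Dbp (adjusted p 0.0491), 1.99 for Per2 (adjusted p 0.0904) and 1.97 for Nr1d1 (adjusted p 0.0958). Leaving out each mouse in turn left 2 to 4 of them past the threshold, and 15 of the 38 single mice reduced it to 2. Per3 passed in each of these fits, and Dbp failed only without the placebo-treated APPPS1ΔE9 replicate 2 of 10 months (adjusted p 0.259). Among the other clock genes Usp2 (4.74), Fbxl21 (3.62), Npas2 (3.53) and Hlf (2.39) were wider at 10 months, and Arntl2 (0.49) and Nampt (0.429) were narrower.

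**Figure D4:**
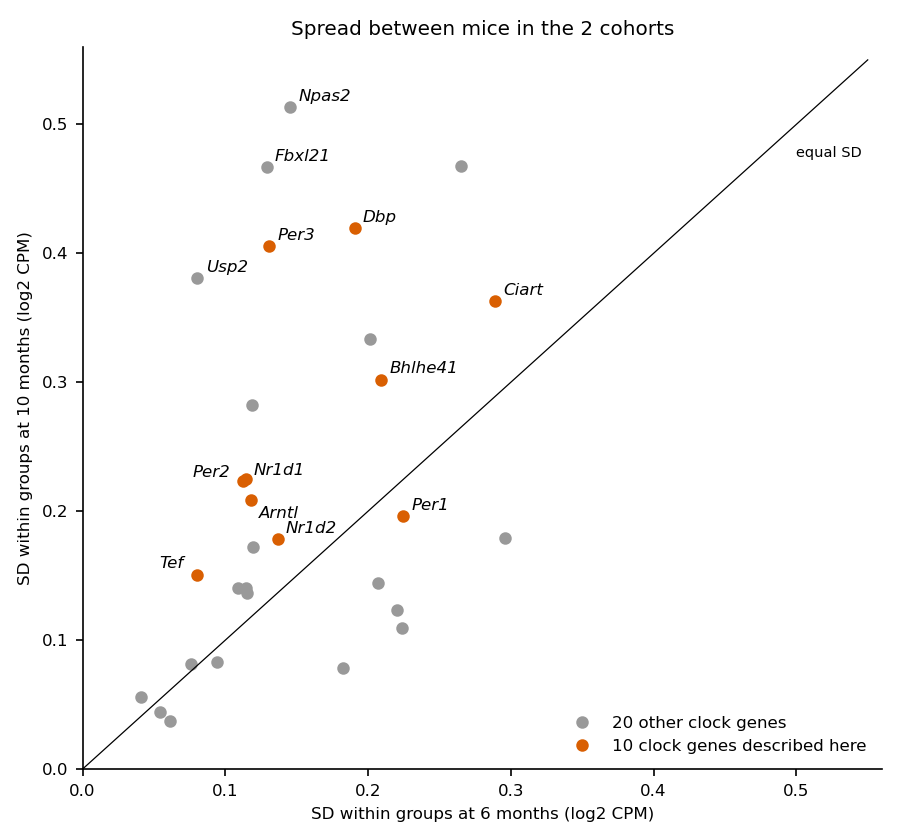
SD of log2 CPM within groups at 10 months against that at 6 months for the clock genes, with a line of equal SD. Per3 (0.131 and 0.406) and Dbp (0.191 and 0.42) lie far above the line and Per1 (0.225 and 0.196) just below it.

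The width of Per3 came from all 4 groups of 10 months. Its values were 67.5, 71.4, 97.5, 109.8 and 112.8 CPM in placebo-treated WT, 49.0, 57.4, 69.3, 92.5 and 103.5 in anle138b-treated WT, and 42.45, 63.8, 73.4, 102.0 and 104.5 in placebo-treated APPPS1ΔE9 mice. Anle138b-treated APPPS1ΔE9 mice were at 61.25 to 109.9 CPM (median 97.8). High and low mice thus occurred in each group and in every sequencing lane of that age. The widest step in the ordered values was from 77.5 to 92.5 CPM, 0.255 on the log2 scale, and the next widest was 0.228.

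Relations between the genes were examined mouse by mouse, as deviations of log2 CPM from the group mean over 38 mice, with 100000 permutations within groups. Among the 9 genes without Arntl, 24 of 36 pairs had an adjusted permutation p under 0.1, each positive, and the median r was 0.493. The share of such relations among other genes was not computed, here or for the marker lists below. An r of 0.6 or more with the mean of the 9 was reached by 8.61% of the other genes compared. That is another measure than the count of pairs, so whether such counts are particular to clock genes was not tested. Dbp and Nr1d1 had r = 0.778 and rho = 0.766 (permutation p 3e-05, adjusted 0.000216), and r = 0.635 without the 2 farthest mice. Dbp and Ciart had r = 0.751 and rho = 0.698 (permutation p 2e-05, adjusted 0.000216), and r = 0.77 without the 2 farthest. Per3 and Tef had r = 0.821 and rho = 0.729 (permutation p 1e-05, the smallest that the permutations can give), and r = 0.753 without the 2 farthest. Of the 24, 16 kept a permutation p under 0.05 without the 2 farthest mice. By cohort, r was 0.408 at 6 months (permutation p 0.249) and 0.836 at 10 months for Dbp and Nr1d1, 0.812 and 0.76 for Dbp and Ciart, and 0.557 and 0.862 for Per3 and Tef. An unadjusted permutation p under 0.05 was reached by 11 of the 36 pairs in the 16 mice of 6 months and by 20 in the 22 mice of 10 months, and 27 and 34 pairs were positive, against 35 over all mice.

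Arntl was not opposite to the others over all mice. Of its 9 relations none had an adjusted permutation p under 0.1, and r ran from -0.146 with Ciart to 0.413 with Per3. In the 16 mice of 6 months 8 of the 9 were negative, and 4 had an unadjusted permutation p under 0.05. These were Dbp (r = -0.745, adjusted permutation p 0.00072), Nr1d2 (-0.689), Bhlhe41 (-0.637) and Ciart (-0.584), the last 3 each with an adjusted permutation p of 0.076. In the 22 mice of 10 months 7 of 9 were positive, and Bhlhe41 had r = 0.658 (adjusted permutation p 0.0138). Whether the cohorts differ in these relations was not tested.

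Per3 was also set against tissue markers and against Npas2, an activator in place of CLOCK that is abundant in forebrain neurons. These relations were added after the data were seen. Over 38 mice Per3 had r = 0.802 and rho = 0.844 with 7 hippocampal neuron markers (permutation p 1e-05, adjusted 0.0006 over 60 relations, r = 0.775 without the 2 farthest mice). With Npas2 it had r = -0.765 and rho = -0.849 (permutation p 0.00013, adjusted 0.00065 over 10 relations, r = -0.772 without the 2 farthest). By cohort, r with the neuron markers was 0.311 at 6 months (permutation p 0.315) and 0.834 at 10 months (permutation p 1e-05). With Npas2 it was -0.478 (permutation p 0.099) and -0.783 (permutation p 0.00019). The neuron markers had 8 relations of 10 with an adjusted permutation p under 0.1, and r was positive for all 10 clock genes (median 0.517, and 0.323 at 6 months). Of these 8, 6 kept a permutation p under 0.05 without the 2 farthest mice. Over the 22 mice of 10 months the neuron marker sum ran from 651 to 1118 CPM, Npas2 from 12.7 to 38.5 CPM and the oligodendrocyte marker sum from 2169 to 6935 CPM. The part of tissue composition in the levels of Per3 was not tested. In bulk tissue, fewer cells of a type and less RNA per cell cannot be told apart.

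Npas2 and Arntl had r = -0.712 and rho = -0.602 over 38 mice (permutation p 0.00011, adjusted 0.00065, r = -0.582 without the 2 farthest), but 0.0953 at 6 months. Within the 10-month mice, r of log2 CPM was -0.91 in the 10 with Per3 below its widest step and 0.193 in the 12 above it (permutation p 0.549). The split was made on Per3 in these same data after they were seen. Group means were not subtracted for these 2 values, unlike for the others, so no conclusion is drawn from their difference. Per1 and Per2 followed 12 immediate early genes, with r = 0.65 (rho = 0.63, permutation p 0.00377, adjusted 0.0218) and 0.596 (rho = 0.61, permutation p 0.00432, adjusted 0.0218). Without the 2 farthest mice r was 0.377 and 0.545, and for Per1 the permutation p was then 0.0879, so that its relation rests in part on those mice. Ciart went against 8 cold and heat responsive genes (r = -0.639, rho = -0.454, permutation p 0.00072, adjusted 0.0072), and r was -0.365 without the 2 farthest. Of the 10 clock genes, 7 had an adjusted permutation p under 0.1 with that list, all negative. Of these 7, 2 kept a permutation p under 0.05 without the 2 farthest mice. At 6 months none of the 10 had an unadjusted permutation p under 0.05 (median r -0.049), and at 10 months 7 did (median r -0.599). Thalamus markers had 5 and glucocorticoid-responsive genes 4 relations of 10 with an adjusted permutation p under 0.1, all positive. Of these relations 4 and 2 kept a permutation p under 0.05 without the 2 farthest mice. The strongest were those of Per3, at r = 0.681 (rho = 0.671, permutation p 0.00019, adjusted 0.0038, 0.597 without the 2 farthest) and r = 0.565 (rho = 0.417, permutation p 0.00062, adjusted 0.0072, 0.427 without the 2 farthest). For Per3, r was -0.0407 and -0.0567 at 6 months and 0.825 and 0.612 at 10 months. Over the 10 clock genes, 9 relations with the thalamus markers were negative at 6 months (median r -0.404, lowest -0.627, 3 with an unadjusted permutation p under 0.05), as were 6 with the glucocorticoid-responsive genes (median r -0.135), while at 10 months all 10 were positive with either list. The choroid plexus markers had no relation with an adjusted permutation p under 0.1 among 10 over all mice. Their relations differed in sign by cohort. At 6 months 1 of the 10 was positive (median r -0.441, lowest -0.647, 1 with an unadjusted permutation p under 0.05). At 10 months 9 were positive (median r 0.145).

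**Figure D5:**
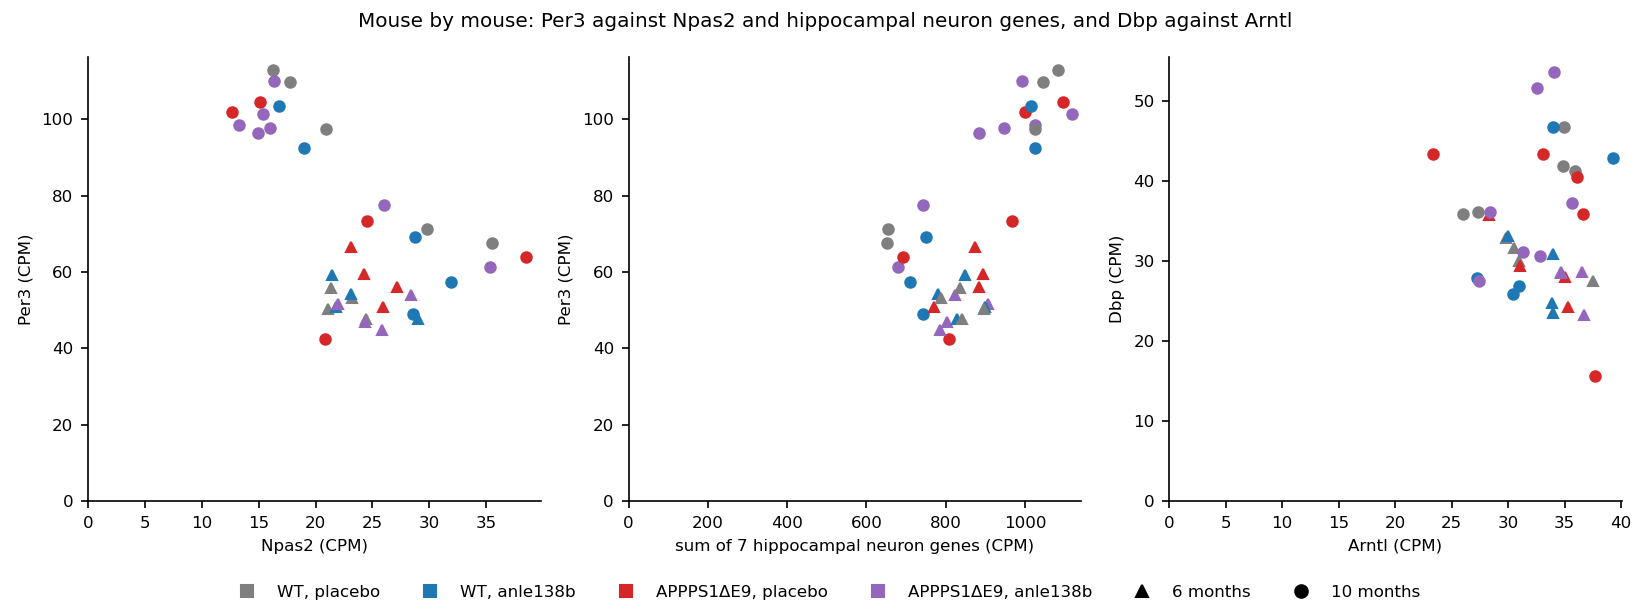
Each point is a mouse, coloured by group, with 6-month and 10-month mice marked apart: Per3 against Npas2, Per3 against the summed hippocampal neuron markers, and Dbp against Arntl, all in CPM on linear axes. The 10-month mice with Per3 at 92.5 CPM or more have Npas2 at 20.9 CPM or less, and Dbp falls as Arntl rises among 6-month mice (r = -0.745 as deviations from group means).

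Genes whose pattern was most like the mean of the 9 clock genes were ranked by r of deviations over the 38 mice among 13618 genes. The nearest was Usp2 (r = 0.853), followed by Atg13 (0.845), an autophagy factor, Foxo3 (0.84), Tnip2 (0.835) and Gng7 (0.833). The most opposite were Thsd7b (-0.857), Synj2 (-0.853) and Acly (-0.839), which makes cytosolic acetyl-CoA. Within 6-month mice alone Usp2 had r = 0.39, Foxo3 0.789 and Thsd7b -0.219. An r of 0.6 or more was reached by 8.61% of genes and one of -0.6 or less by 9.24%, so likeness to these genes was common in this tissue. Of the 20 other clock genes, Usp2 alone was among the nearest 15. Each clock gene against the mean of the others of the 9 had r between 0.353 for Bhlhe41 and 0.824 for Tef.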

How the data were processed

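Hippocampal mRNA libraries (TruSeq) were aligned by the authors with STAR to mm10. Reads per gene were obtained with HTSeq (intersection-nonempty), and the authors deposited whole-number read counts of 48709 genes per mouse, not normalized. Annotation release and strandedness are not given in the sources used here, so overlapping genes cannot be told apart.

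From the deposited counts, genes passing filterByExpr of edgeR 4.0.16 (minimum count 10, minimum total 15) were scaled by TMM. The test was edgeR's quasi-likelihood test in R 4.3.3. Each pair of groups was fitted alone, and the 10-month against 6-month comparison used all 38 mice with the 4 combinations of genotype and chow as a term. P-values were adjusted by Benjamini-Hochberg over all genes tested, with a threshold of 0.1. The clock index, correlations and levels used log2 CPM with a prior count of 2. Permutation tests were two-sided. Symbols came from GENCODE M21 (48349 of 48709 identifiers) and promoters from RefSeq.

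Groups came from the sample titles. Cages and litters are not in the labels, so p-values measure the spread between these mice. The list of 10 genes, the other lists and the tests were chosen with earlier results of these data known. The genes named are the 10, the other clock genes that were called with up to 4 more, and the first few of the 15 most and 10 least like genes. The closing section gives the alternatives: DESeq2 1.42.0, RLE size factors, no filter, covariates, blocks and single mice left out. One gene of the list of other clock genes is not reported here. Scripts were tested on simulated data.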

Additional observations from a re-analysis of the deposited data

Results flagged for a closer look

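Within groups of 4 to 7 mice, the lowest or highest value stood apart from the others by Dixon's ratio in 11 of 88 groups of values, where chance alone gives about 1 in 20. Of the 11, 3 came from the placebo-treated APPPS1ΔE9 replicate 2 of 10 months, with Dbp at 15.6, Nr1d1 at 52.4 and Ciart at 6.84 CPM, each the lowest of its group. Another 3 came from the placebo-treated WT replicate 1 of 6 months, with Per1 high at 66.4, Nr1d2 low at 68.7 and Arntl high at 37.5 CPM. In anle138b-treated APPPS1ΔE9 mice of 6 months, replicate 2 was low in Dbp (23.25 CPM) and in the clock index (0.245), and replicate 4 was high in Nr1d1 (77.98 CPM). Arntl was low in the anle138b-treated WT replicate 3 of 6 months (30.02 CPM) and in the placebo-treated APPPS1ΔE9 replicate 1 of 10 months (23.4 CPM). Why these mice stood apart was not tested.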

How the results depend on the processing

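The count of clock genes called within an age was 0 in all 12 tests and under nearly all alternatives. The exceptions were 1 gene, Per2, for the chow in 6-month APPPS1ΔE9 mice with DESeq2, without the filter and with Y-linked expression as a covariate, and 0 to 1 with a single mouse left out. Per2 was also the 1 gene for any difference at 6 months with DESeq2 (adjusted p 0.0127). Bhlhe41 was the 1 gene between genotypes on anle138b at 10 months with the Y-linked covariate. These settings called more genes of any kind. The 3 for the chow called 204 of 17009, 120 of 31422 and 94 of 17009 genes, against 9 in the main fit. DESeq2 called 453 of 17404 for any difference at 6 months, against 28. The fit that called Bhlhe41 called 269 of 17151, against 124. Between the ages, 8 clock genes remained called with every mouse left out in turn, and 4 with mice of Ttr under 300 CPM. Only 5 mice of that set are of 6 months. Tef changed sign with the replicate block (-0.000451) and in the low-Ttr mice (-0.034), and Arntl with choroid plexus markers as a covariate (0.00507) and in the low-Ttr mice (0.0125). Leaving out single mice took the count of wider genes at 10 months to 2 to 4, the SD ratio of Per1 to 0.733 to 1.9 (above 1 without the placebo-treated APPPS1ΔE9 replicate 2 of 6 months) and that of Nr1d2 to 0.882 to 1.88.

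The relations of Arntl depended on the cohort and measure. At 6 months r was 0.039 with Per1, -0.189 with Per2, -0.379 with Per3, -0.745 with Dbp, -0.477 with Tef, -0.357 with Nr1d1, -0.689 with Nr1d2, -0.584 with Ciart and -0.637 with Bhlhe41. At 10 months it was 0.119 with Dbp, 0.162 with Nr1d2 and 0.658 with Bhlhe41. Spearman's rho turned positive for Per1 (0.106), Dbp (0.113) and Nr1d2 (0.057), as did r without the 2 farthest mice for Per1 (0.0198) and Dbp (0.115). Without subtracting group means r was -0.051 for Per2, -0.0145 for Tef and -0.0348 for Nr1d1. At 6 months relations of the opposite sign to the pooled ones included those of Npas2 with Arntl (0.0953), of Per3 with the glucocorticoid-responsive (-0.0567) and thalamus (-0.0407) lists, and of Arntl with the neuron list (-0.0206). Positive relations went from 10 of 10 pooled to 1 at 6 months for the thalamus list, from 10 to 4 for the glucocorticoid-responsive list and from 35 to 27 of 36 for pairs of clock genes. Relations of Per3 within mice split on Per3 are not given, since the split narrows its range. The cause was not tested.

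Replicate numbers did not pair the mice: in no comparison did every same-numbered pair correlate above 0.1 (range -0.548 to 0.567). With the replicate number as a block, 8 clock genes were called between the ages and 0 within them. The covariates for choroid plexus, the sets of mice, the tests of spread and the relations other than those of Arntl were added after the data were seen.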
